A study of Mus musculus with 5 samples.

Results

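The Pax7 muscle progenitors described here are single nuclei of mouse hindlimb muscle with a joint readout of RNA and accessible chromatin (10x Genomics multiome). They were chosen by their RNA counts. A nucleus was taken as a progenitor where it had over 400 and under 25000 gene UMIs (unique molecular identifiers, 1 per captured RNA molecule), where Ttn (titin, the giant protein of the sarcomere) made up under 1% of them, where Pax7 had at least 1 UMI, and where at least 3 of the 7 markers Pax7, Calcr, Fgfr4, Myf5, Chodl, Megf10 and Msc were detected with a sum of at least 0.05%. There were 744 progenitors among 21209 nuclei within the depth limits, of 22301 barcodes in all. The KO library was from Cacna1s-/- C57bl6n fetuses at E18.5, homozygous for the allele named Cacna1s tm1.1(KOMP)Vlcg, and held 331 progenitors from 26 pooled hindlimbs. The wild-type (WT C57bl6n) libraries were from E14.5 embryos, E18.5 fetuses, P5 pups and adults, and held 179, 148, 73 and 13 progenitors from 56, 14, 8 and 4 pooled hindlimbs. Cacna1s encodes the voltage sensor that couples excitation to contraction in the muscle fiber, and it was absent from the whole animal in the KO. Each group was 1 library, so the spread between animals is unknown, no comparison of stages or genotypes has a test, and every interval given is a 95% interval that covers counting error only.

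Pax7 is the transcription factor that marks the stem and progenitor cells of skeletal muscle. During embryonic and fetal growth these cells divide and supply the myoblasts that fuse into fibers, and after birth those that remain beneath the basal lamina of the fiber become satellite cells, which leave the cell cycle and stay quiescent until injury. Notch signalling, the calcitonin receptor Calcr and contact with the laminin- and collagen-rich niche are known to hold satellite cells in quiescence.

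The 250 bases upstream of the annotated starts of Pax7, Fgfr4, Chodl and Calcr are shown because these are the genes that set the progenitors apart and because open chromatin was read over them in the same nuclei. They are RefSeq sequences of the mouse build GRCm38.p6 (the mm10 build of the files), at chr4:139832969-139833218 on the minus strand for Pax7, chr13:55152568-55152817 on the plus strand for Fgfr4, chr16:78930698-78930947 on the plus strand for Chodl and chr6:3763624-3763873 on the minus strand for Calcr. Capitals mark matches, on either strand, to the E-box CAGCTG, the RBPJ core TGGGAA, the TEAD core GGAATG, the NFI arm TTGGCA and the GC box GGGCGG.
Pax7: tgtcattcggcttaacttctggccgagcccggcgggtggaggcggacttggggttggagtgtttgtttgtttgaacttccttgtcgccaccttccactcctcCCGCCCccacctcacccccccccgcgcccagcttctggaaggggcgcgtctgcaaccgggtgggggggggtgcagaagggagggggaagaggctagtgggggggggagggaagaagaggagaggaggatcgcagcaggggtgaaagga
Fgfr4: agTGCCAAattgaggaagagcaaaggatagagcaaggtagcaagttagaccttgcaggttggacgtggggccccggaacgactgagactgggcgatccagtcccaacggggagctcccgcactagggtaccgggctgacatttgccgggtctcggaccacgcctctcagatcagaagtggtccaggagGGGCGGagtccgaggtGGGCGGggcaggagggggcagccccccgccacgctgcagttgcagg
Chodl: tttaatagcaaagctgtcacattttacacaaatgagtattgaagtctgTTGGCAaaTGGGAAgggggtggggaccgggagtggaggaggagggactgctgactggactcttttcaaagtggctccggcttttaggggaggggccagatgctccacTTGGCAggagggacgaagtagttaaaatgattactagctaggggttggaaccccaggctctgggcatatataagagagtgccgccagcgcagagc
Calcr: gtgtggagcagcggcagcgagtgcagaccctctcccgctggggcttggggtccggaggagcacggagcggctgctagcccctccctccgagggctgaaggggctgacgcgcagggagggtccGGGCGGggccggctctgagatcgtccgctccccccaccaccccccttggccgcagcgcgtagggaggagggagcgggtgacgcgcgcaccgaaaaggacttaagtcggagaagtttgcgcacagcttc
The GC box was matched once upstream of Pax7 and of Calcr and 2 times upstream of Fgfr4, which also held 1 NFI arm. Upstream of Chodl there were 1 RBPJ core and 2 NFI arms. Among 32851 RefSeq promoters of this length, 32.7% held the GC box, 12.3% the NFI arm, 21.6% the RBPJ core, 13% the E-box and 12.6% the TEAD core, so that a match is a description of the letters and no more. GC made up 65.2% of the Pax7 window, 64% of that of Fgfr4, 52% of that of Chodl and 70.8% of that of Calcr, against a median of 52.4% over all promoters. All 250 bases lay within a called peak of open chromatin in the 5 libraries for Pax7, Fgfr4 and Chodl, and in the E14.5, E18.5 and P5 libraries for Calcr. Calcr has a second annotated start, whose window (chr6:3764714-3764963, 46% GC) is not shown and held no match. In the E14.5, E18.5 and P5 libraries 0 of its bases lay within the Calcr peak. The window of the marker Myf5 (48.8% GC) held no match and is not shown either.

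The progenitors' median depth was 7178 gene UMIs in the KO, and 4665, 5171.5, 3714 and 1117 by WT stage. Their summed UMIs, over which all levels below are given in CPM (UMIs of a gene scaled to a library sum of 1000000), were 2915043 in the KO, and 922611, 981057, 402973 and 17480 by WT stage. A gene with no UMI was set to a floor of 3 counts, which is 1.03 CPM in the KO and 3.25, 3.06, 7.44 and 172 CPM by WT stage, so that in the adult only abundant genes were measurable. The targeted gene was checked first. Cacna1s had 8 UMIs (0.720 CPM) in 987 KO nuclei with myonuclear markers, against 188 CPM in 1587 such WT nuclei at E18.5. In progenitors it had 0 UMIs in the KO, which allows up to 1.03 CPM, and 2 UMIs in WT at E18.5, so the channel gene was near or below detection in the progenitors themselves. Over the 10 pairs of libraries 293 barcodes occurred in both, and 1 of them was a progenitor barcode in both.

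A part of the progenitors also held markers of another cell type, which bears on every level below. Nuclei with at least 3 markers of a non-myogenic cell type summing to at least 0.05% of their UMIs numbered 100 of 331 in the KO (30.2%). In WT there were 37 of 179 at E14.5 (20.7%), 49 of 148 at E18.5 (33.1%), 32 of 73 at P5 (43.8%) and 1 of 13 in the adult. Most held mesenchymal markers (85 in the KO, and 37, 49, 30 and 1 in WT by stage), and 11 KO nuclei held macrophage markers, against 0 in WT at E18.5. The summed level of the 11 mesenchymal markers, collagens and matrix genes of fibroblasts among them, was 947, 3196, 5772 and 1029.8 CPM in progenitors by stage, and 4897, 11212, 14284 and 7166 CPM in the mesenchymal nuclei. Without the nuclei that held such markers it was 433, 474, 601 and 782 CPM. Those nuclei were picked by these markers, so lower sums of the markers without them follow from the choice, here and below. The same holds for genes that other lists share with the markers, such as Col1a1 of the matrix list. The endothelial markers summed to 10.8, 12.2 and 159 CPM at E14.5, E18.5 and P5 (6.83 CPM at P5 without those nuclei), and had 0 UMIs in the adult, where the floor was 172 CPM. Myonuclear markers, by the same limits, were held by 82 KO progenitors (24.8%), and by 22 (12.3%), 32 (21.6%), 7 (9.59%) and 0 WT progenitors by stage. This count needs 3 detected genes and so depends on depth. The summed level ran otherwise, at 894 CPM in the KO and 912, 718, 1102 and 1144 CPM by WT stage, the adult on 20 UMIs. Without nuclei holding non-myogenic markers it was 894 CPM in the KO and 846, 668, 396 and 1238 CPM by WT stage. Markers of committed myoblasts were held by 14 KO progenitors, and by 7, 3, 2 and 0 in WT. Nuclei that held these myogenic markers alone were not left out. Doublets were not removed, nuclei with these markers were deeper (median 7086 UMIs, against 4841 UMIs in the others, at E18.5), and whether they were doublets, carried free RNA or expressed the genes was not tested. Counts without these nuclei are given beside each comparison.

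Progenitors made up similar shares of nuclei at E14.5 and E18.5, a smaller share at P5 and the smallest in the adult, and they were most frequent in the KO. The share of nuclei within the depth limits was 3.71% at E14.5 (3.19–4.28), 3.46% at E18.5 (2.93–4.05), 1.95% for P5 (1.53–2.44) and 0.254% for adult muscle (0.135–0.434). The intervals of E14.5 and E18.5 overlapped, and with at least 4 markers asked for their order turned (1.82% at E14.5 and 2.59% at E18.5). The share was 10.3% (9.23–11.3) in the KO, against 3.46% in WT at E18.5. The KO matrix held 3621 barcodes, 3229 of them within the depth limits. That is fewer than the number of nuclei that the study's methods give for the KO after filtering, whereas each WT matrix held more than theirs, so the KO share may be over other nuclei than the study's. The denominator differed too, with 4435 myonuclei in the adult and 1736 at P5. Among nuclei with Ttn under 1% the share was 14.8% in the KO, and 6.05%, 5.49%, 3.62% and 1.91% by WT stage. Before loading, nuclei were sorted as PCM1-positive and PCM1-negative fractions, both gated on PCNA, and mixed in equal volumes, so that the make-up of the tissue and the effect of the gates on a share cannot be told apart. The plot of progenitor share by library shows both denominators.

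**Figure D1:**
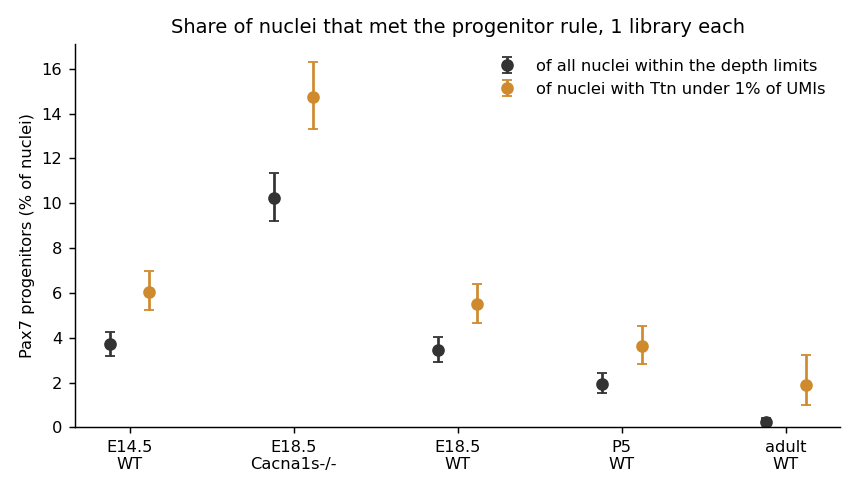
Share of nuclei that were Pax7 progenitors in each library, in percent (y axis), over all nuclei within the depth limits and over nuclei with Ttn under 1% of UMIs, with bars for the exact binomial 95% interval. The KO library stands highest on both denominators (10.3% and 14.8%) and the adult lowest (0.254% and 1.91%).

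The markers that chose the nuclei are given as a description. Pax7 was at 435, 367 and 442 CPM at E14.5, E18.5 and P5, with 1659 CPM in the adult on 29 UMIs, whereas other nuclei of the same libraries had 5.04 to 12.0 CPM. Calcr changed most with stage, at 13, 149, 414 and 1659 CPM, and was detected in 3.91%, 32.4%, 47.9% and 84.6% of the progenitors. In endothelial nuclei, which should lack it, it was found in 0 of 108, 2 of 95 (2.11%), 0 of 73 and 0 of 8, at median depths of 3990, 5533, 4481 and 947 UMIs. It was at 43.9 CPM and in 12.1% of progenitors in the KO, against 149 CPM and 32.4% in WT at E18.5. Chodl, a lectin-like surface protein, was at 170.2, 301, 303 and 1773 CPM. The rule asked for at least 3 detected markers at any depth, and so for a higher marker CPM in shallow nuclei. The median depth of progenitors was 1117 UMIs in the adult and 4665 UMIs at E14.5. In the adult levels of Pax7, Calcr and Chodl, the part of stage and the part of the rule cannot be told apart. The tyrosine kinase receptor Fgfr4 kept to 320.1 to 404 CPM and the engulfment receptor Megf10 to 486 to 686 CPM over all 5 libraries. Msc was at 57.2 to 110.1 CPM and Myf5 at 23.3 to 57.2 CPM, where 57.2 CPM is for each gene 1 UMI in the adult (1.45–319). Myf5, the determination factor, was detected in only 7.69% to 18.2% of progenitors, the lowest share being 1 adult nucleus. The rule had close neighbours on each side. Progenitors with exactly 3 markers numbered 71 in the KO and 91, 37, 26 and 6 by WT stage, and nuclei left out for having only Pax7 and 1 other marker numbered 14 in the KO and 28, 18, 10 and 7 by WT stage. Nuclei that met all else but had no Pax7 UMI numbered 63 in the KO and 28, 46, 20 and 2 by WT stage. Those left out for Ttn at or above 1% numbered 50 in the KO and 8, 23, 15 and 0 by WT stage, and those at or above 25000 UMIs 65 in the KO and 3, 9, 5 and 0 by WT stage.

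The share of progenitors that expressed genes of mitosis, which the rule did not use, was lower at each later stage. After each nucleus was thinned to 1000 UMIs, at least 2 of 20 mitosis genes (Top2a, Mki67, Cenpf and others) were detected in 58.1% (50.5–65.4; 104 of 179) at E14.5, 40.5% (32.6–48.9; 60 of 148) at E18.5 and 30.1% (19.9–42.0; 22 of 73) at P5. In the adult it was 0 of the 8 progenitors deep enough, with an upper limit of 36.9%. In the KO it was 55.6% (50.1–61.0; 184 of 331), against 40.5% in WT at E18.5. Without thinning the shares were 71.6% in the KO and 77.7%, 62.2%, 42.5% and 0 of 13 by WT stage. Without nuclei holding other-type markers they were 53.7% in the KO and 58.5%, 39.4%, 36.6% and 0 of 7 by WT stage, and the intervals of E18.5 and P5 overlapped with or without them. Myonuclei of the same libraries, which have left the cell cycle, gave 3.98% in the KO and 1.20%, 2.15%, 1.03% and 0 by WT stage, and mesenchymal nuclei 20.7% in the KO and 14.6%, 18%, 7.46% and 0 by WT stage. Both sorted fractions were gated on PCNA, a protein of replicating DNA whose antibody the study's methods describe as a stain for all nuclei. The part of this gate in the shares was not tested.

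**Figure D2:**
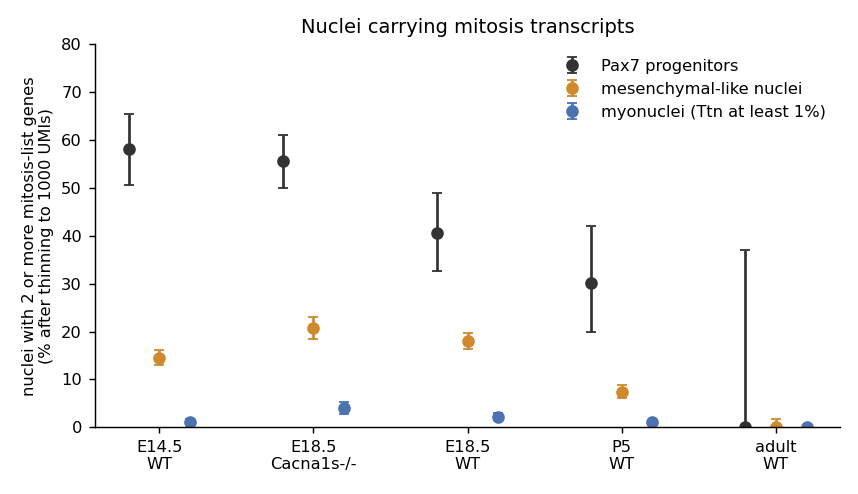
Percent of nuclei with at least 2 of 20 mitosis genes detected after thinning to 1000 UMIs (y axis), for Pax7 progenitors, mesenchymal nuclei and myonuclei of each library, with exact binomial 95% intervals. Progenitors lie above the other nuclei in every library but the adult, where no progenitor had 2 such genes, and KO progenitors (55.6%) lie above WT progenitors at E18.5 (40.5%).

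Within a library, the progenitors divided into a part with mitosis genes and a part without. At P5, 22 nuclei had 2 or more, 9 had 1 and 42 had none, while before thinning 31 had 2 or more and 38 at least 1. Nuclei with none after thinning still had the mitosis list at 298 CPM in the KO. In WT they had it at 720, 319 and 43.6 CPM at E14.5, E18.5 and P5, so the groups were least separated at E14.5. In those with 2 or more, 18 genes of DNA replication (the Mcm helicase, Pcna, the ribonucleotide reductase) summed to 4305 CPM, against 890.1 CPM in those with none. In the KO the same sums were 3136 and 2156 CPM, in WT at E18.5 3531 and 2163 CPM, and at E14.5 they were close, at 2660 and 2634 CPM. The quiescence list (18 genes of the satellite cell surface and niche, such as Spry1, Vcam1 and Cdh15) summed to 2814 CPM with mitosis genes and 2387 CPM without at P5, and to 2281 and 2669 CPM at E18.5. At these stages the quiescence list was not confined to nuclei without mitosis genes.

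A small part of the genes outside the rule was higher in the progenitors of every library. Of 4638 genes with at least 1 UMI in progenitors of all 5 libraries, 26 (0.561%) had a ratio of progenitors over other nuclei whose lower limit was above 2 in each, and 25 of them still did so without nuclei holding other-type markers. With the adult left out of the count, 148 genes did so, and their share of the genes then eligible was not computed. These ratios describe the nuclei that the rule chose and are no test of them. Pde1c, a phosphodiesterase of cyclic nucleotides, was at 501 CPM in KO progenitors and 569, 592, 650.2 and 2117 CPM in WT progenitors by stage, against 34.9 to 80.8 CPM in other nuclei. Chrna7, a nicotinic receptor subunit, was at 146 CPM in the KO and 182, 170.2, 59.6 and 114 CPM by WT stage, against 1.33 to 18.9 CPM in other nuclei, the adult value resting on 2 UMIs. Iqsec3, an exchange factor for Arf GTPases, was 10.7-fold (KO) to 40.8-fold (P5) higher in progenitors in the 4 younger libraries.

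The shared genes included some Notch components and niche matrix genes. The whole Notch list summed to 2730 CPM in KO progenitors and 2340, 2499, 2457 and 3719 CPM by WT stage. Other nuclei had 2333 CPM in the KO and 1970, 2045, 1931 and 1226 CPM. The whole matrix list summed to 9481 CPM in KO progenitors and 8412, 13308, 16361 and 8982 CPM by WT stage. Other nuclei had 9420 CPM in the KO and 8294, 13602, 12986 and 1179 CPM. The receptor Notch3 was at 311 CPM in the KO and 287, 404, 347 and 973 CPM by WT stage, against 8.20 to 82.7 CPM in other nuclei. Dtx4, a ubiquitin ligase of the Deltex family that acts on Notch, was at 77.2 CPM in the KO and 104, 98.9, 154 and 629 CPM by WT stage, against 2.70 to 24.1 CPM in other nuclei. The matrix genes Frem1, Col15a1 and Hmcn2 were 3.97- to 12.3-fold, 4.09- to 6.69-fold and 8.17- to 21.7-fold higher in progenitors in the 4 younger libraries. Fgf12, Map2, Tshz3, Prox1, Ssh2, Nectin1, Lix1, Csgalnact1 and Hs6st2 were also among the 26.

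At E18.5, niche and matrix genes were higher and some embryonic receptors and growth regulators lower in progenitors than at E14.5, while no mitosis gene differed 2-fold. A gene was counted as higher or lower when it had at least 20 UMIs in 1 of both libraries and differed at least 2-fold, so a gene that passed only through its high library had to differ. Of 7887 genes measured, 706 were higher at E18.5 (8.95%) and 503 lower (6.38%), with a median log2 ratio of -0.03, and in 680 and 498 of them the interval excluded equality. Without nuclei holding other-type markers, 385 were higher and 525 lower of 6161. The comparisons E18.5 over E14.5, P5 over E18.5 and KO over WT all use the WT E18.5 library, so that their values are not independent.

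Of the quiescence list, 6 of 12 measured genes were higher at E18.5 and 0 lower (median log2 ratio 0.74), and 4 of 10 without nuclei holding other-type markers. Dag1 (dystroglycan, the laminin receptor) was at 542 CPM at E18.5 and 218 CPM at E14.5, 2.49-fold higher (2.11–2.94). Itga7, the laminin-binding integrin of muscle, was at 109 CPM at E18.5 and 33.6 CPM at E14.5 (3.25-fold, 2.16–5.01). The adhesion receptor Vcam1 and the transcription factor Foxo3 were 2.32-fold (1.5–3.67) and 2.89-fold (2.02–4.20) higher. Cd34 and Col5a3, the other members counted as higher, are also expressed by mesenchymal cells. Of 24 measured matrix genes 11 were higher (median 0.94) and 0 lower. Without nuclei holding other-type markers 4 of 21 were higher and 1 lower (median 0.57). Col15a1 and Tnc kept their direction there: Col15a1 was at 327 CPM at E18.5 and 88.9 CPM at E14.5 over all progenitors, and at 439.7 and 83.4 CPM without those nuclei.

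Hmcn2 (hemicentin, a giant matrix protein) led the higher side by the lower limit of its ratio. It had 303 CPM in 92 of 148 progenitors at E18.5, against 8.67 CPM in 7 of 179 at E14.5 (34.9-fold, 17.5–81.6), and 354 against 9.44 CPM without nuclei holding other-type markers. Rcan2, a regulator of calcineurin, was at 119 CPM in 46 progenitors at E18.5 and 4.34 CPM in 4 at E14.5. Zbtb16, a zinc finger repressor, was at 98.9 CPM in 49 progenitors at E18.5 and 3.25 CPM in 2 at E14.5. Fndc1 was at 314 and 23.8 CPM. Other nuclei with Ttn under 1% were also higher at E18.5 for these genes, 16.3-fold for Hmcn2, 2.12-fold for Rcan2, 5.15-fold for Zbtb16 and 8.30-fold for Fndc1. Other leading genes (Tnxb, Adgrd1, Pparg) either lay mainly in nuclei holding other-type markers or, for Pparg, had 67% of their UMIs in 1 nucleus. The imprinted noncoding RNA Meg3 was at 6056 CPM at E18.5 and 1954 CPM at E14.5 (3.10-fold, 2.94–3.27).

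Genes lower at E18.5 included receptors and embryonic regulators. Moxd1, a copper monooxygenase, was at 1.02 CPM in 1 progenitor at E18.5 and 131 CPM in 65 at E14.5. Itga4, an integrin of migrating cells, was at 9.17 CPM in 8 progenitors at E18.5 and 173 CPM in 65 at E14.5 (18.9-fold lower, 9.71–42.1). Gfra1, a receptor for glial cell line-derived neurotrophic factor, was at 66.3 CPM at E18.5 and 419 CPM at E14.5 (6.33-fold lower, 4.86–8.37), and Erbb3, a neuregulin receptor, was at 3.06 and 39.0 CPM. In other nuclei with Ttn under 1%, Moxd1 and Itga4 were at 0.241 and 0.594 of their E14.5 levels. Of the early growth list, Hmga2 (181 and 657 CPM, 3.62-fold lower, 3.06–4.30) and Lin28b (4.08 and 29.3 CPM) were lower, with 2 of 13 measured in all. Several other genes at the head of the lower side (Nxph1, Nrg3, Cntnap2, Ralyl, Grm5, Hs3st5) came from few E14.5 nuclei, with most of their UMIs in 1. Of 20 mitosis genes 0 were higher and 0 lower (median -0.17), of 17 DNA replication genes 0 and 0, and of 15 Notch genes 0 and 0.

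**Figure D3:**
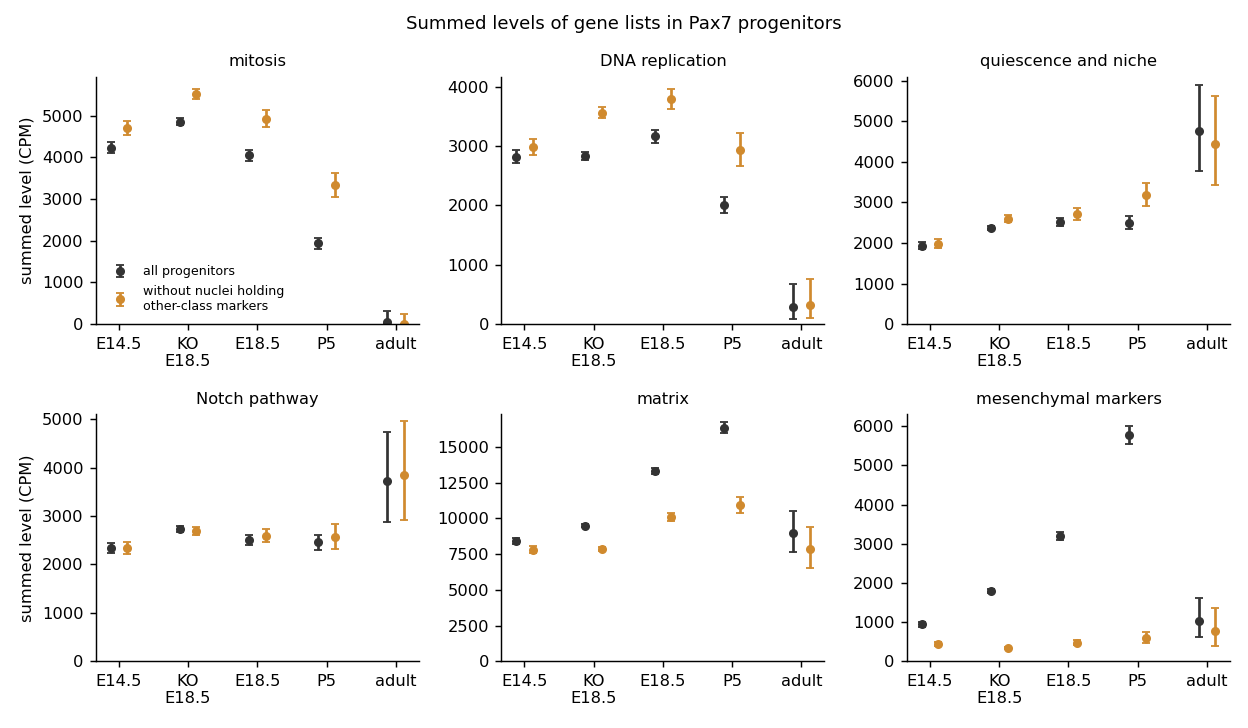
Summed CPM of 6 gene lists in Pax7 progenitors of each library (y axis, each panel from 0), for all progenitors (black) and without nuclei holding other-type markers (orange). Mitosis genes are near 0 in the adult (57.2 CPM, 1 UMI), the quiescence list is highest in the adult (4748 CPM), and mesenchymal markers peak at P5 (5772 CPM, against 601 CPM without those nuclei).

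At P5, mitosis and early growth genes were lower in progenitors than at E18.5. Of 7348 genes, 321 were higher at P5 (4.37%) and 716 lower (9.74%), with a median log2 ratio of -0.14, and the interval excluded equality in 321 and 532. The minimum of 20 UMIs was 49.6 CPM at P5 and 20.4 CPM at E18.5. Genes between these levels were thus measured mainly through E18.5 and could hardly be counted as higher. The split followed the minimum, with 2121 higher and 1497 lower at 1 UMI, and 124 and 312 at 50 UMIs. Without nuclei holding other-type markers 203 were higher and 659 lower of 5023. Of 20 mitosis genes 14 were lower and 0 higher (median -1.15), among them Top2a (310.2 CPM at P5 and 721 CPM at E18.5, 2.32-fold lower, 1.92–2.83), Cenpf (54.6 and 192 CPM) and Nusap1 (32.3 and 167 CPM, 5.18-fold lower, 2.95–9.94). Nuclei holding other-type markers were more frequent at P5, and without them 5 of 18 were lower (median -0.65). The summed mitosis list was 1936 CPM at P5 and 4049 CPM at E18.5 over all progenitors, and 3327 and 4933 CPM without those nuclei. Of 17 DNA replication genes 3 were lower (Mcm7, Prim1, Dtl) and of 8 genes of G1 entry 3 were lower (Ccne1, Ccne2, E2f1), with 0 higher in either list.

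The early growth list was lower whether or not those nuclei were kept, with 5 of 12 lower in both cases (median -0.71 in both). Igf2bp1, a fetal RNA-binding protein, was at 9.93 CPM in 4 of 73 progenitors at P5 and 135 CPM in 77 of 148 at E18.5 (13.6-fold lower, 5.17–50.5). Igf2bp2 was at 84.4 and 222 CPM (2.63-fold lower, 1.83–3.9) and Hmga2 at 44.7 and 181 CPM (4.06-fold lower, 2.50–7.01). The imprinted proteolipid gene Nnat was at 9.93 and 107 CPM. Nrg1, which encodes neuregulin, was at 37.2 CPM in 7 progenitors at P5 and 430.1 CPM in 44 at E18.5 (11.6-fold lower, 6.93–20.8). Other nuclei with Ttn under 1% had Nrg1 at 0.0469 and Igf2bp1 at 0.219 of their E18.5 levels.

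The genes higher at P5 depended on the other-type nuclei. Without them 71 of the 321 were higher, with 101 of the 321 still measured. Pde10a, a phosphodiesterase, was at 1102 CPM in 63 of 73 progenitors at P5 and 113 CPM in 33 of 148 at E18.5 (9.74-fold, 7.89–12.1), and at 1633 and 40.0 CPM without those nuclei. The estrogen receptor gene Esr1 was at 253 CPM in 32 progenitors at P5 and 24.5 CPM in 9 at E18.5. Cpt1a, which imports fatty acids into mitochondria, was at 144 CPM in 39 progenitors at P5 and 8.15 CPM in 7 at E18.5 (17.7-fold, 8.39–42.8). In other nuclei with Ttn under 1% the ratios of P5 over E18.5 were 0.742 for Pde10a, 9.16 for Esr1 and 4.54 for Cpt1a. Slc22a3, an organic cation transporter, was in 11 progenitors at P5 and 0 at E18.5. Chrdl2, a secreted BMP antagonist of the quiescence list, was at 54.6 and 9.17 CPM (5.95-fold, 2.63–14.7), and 3 of 13 genes of that list were higher and 0 lower (median -0.11), with 0 of 10 measured genes counted as higher without those nuclei. Gfra1, which had been lower at E18.5 than at E14.5, was 4.87-fold higher at P5 (3.59–6.66). Trdn, Mlip, Pdzrn4, Chrm2, Fabp4 and Ptprb ranked high as well, with 54% to 100% of their P5 UMIs in 1 nucleus each.

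The adult library held 13 progenitors and 17480 UMIs, and its comparison with P5 rests on few molecules. Of 4326 genes, 486 were higher in the adult (11.2%) and 518 lower (12%), with a median log2 ratio of -0.06 among genes with a ratio, but the interval excluded equality in only 175 and 119, and 1288 genes had no UMI in the adult. The split also moved with the scaling, to 192 higher and 1062 lower with TMM factors, which shift the adult ratios by -0.56 on the log2 scale. Directions below are for CPM. Without the 1 adult and 32 P5 nuclei that held other-type markers 147 were higher and 490 lower of 1850.

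Of the quiescence list, 7 of 13 measured genes were higher in the adult and 0 lower (median 1.40), where without the other-type nuclei 1 of 5 was higher and 2 lower (median -0.03). The intervals excluded equality for Foxo3 (572 CPM in the adult and 99.3 CPM at P5, 5.76-fold, 2.57–11.7), Chrdl2 (343 and 54.6 CPM, 6.29-fold, 2.09–16.0), Vcam1 (286 and 52.1 CPM) and Spry1 (229 and 52.1 CPM), an inhibitor of growth factor signalling known to keep satellite cells quiescent. They did not for Cdh15, Col5a3 and Adgra3. With a floor of 172 CPM, a gene with 0 adult UMIs could be counted as lower only if its P5 level was at least 2-fold above that floor. Genes at low levels at P5 could thus hardly be counted as lower, and Cd34, Sdc3, Cdh2 and Rgs2 of the list had 0 UMIs in the adult. Of 12 Notch genes 3 were higher and 1 lower. Notch3 was at 973 CPM in the adult and 347 CPM at P5 (2.80-fold, 1.59–4.65), and its target Heyl was at 343 and 57.1 CPM (6.01-fold, 2.00–15.2) on 6 adult UMIs. Egfr was at 1831 and 444 CPM (4.12-fold, 2.74–6.03).

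Hs6st3, a heparan sulfate sulfotransferase gene, led the higher side. It had 81 UMIs (4634 CPM) in 11 of 13 adult progenitors and 3 UMIs (7.44 CPM) in 3 of 73 progenitors at P5. It was also low at E14.5 (47.7 CPM) and E18.5 (24.5 CPM). Clmn was at 1316 CPM in 10 of 13 adult progenitors and 29.8 CPM in 9 at P5 (44.2-fold, 21.1–97.4), the kinase gene Camk1d at 5320.4 and 556 CPM (9.57-fold, 7.43–12.2), and the TGF-beta co-receptor Tgfbr3 at 3032 and 330.0 CPM (9.19-fold, 6.55–12.7). Other nuclei with Ttn under 1% had ratios of 0.554 for Hs6st3, 4.05 for Clmn, 4.76 for Camk1d and 1.75 for Tgfbr3. Bmp6 and Glis3 were higher too, with 58.8% and 46.2% of their adult UMIs in 1 nucleus. Gm42418 and Gm26917, which overlap ribosomal RNA repeats and are uncertain, were 9.78- and 11.7-fold higher, and the median mitochondrial share of progenitors' UMIs was 1.24% in the adult and 0.0715% at P5.

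A part of the imprinted and matrix genes was lower in adult progenitors, and a gene with 0 UMIs there may lie anywhere up to the floor of 172 CPM. The imprinted genes Dlk1, Plagl1 and Mest, at 1065, 955 and 372 CPM at P5, had 0 UMIs in the adult, at least 6.20-, 5.57- and 2.17-fold lower against the floor over the library. With the counting error of both libraries the bounds were 5.02-, 4.51- and 1.74-fold. Of 14 measured imprinted genes 7 were lower and 0 higher (median -1.12), and 4 of 12 were lower without the other-type nuclei. The sum of the list was 9783 CPM in the adult and 18515 CPM at P5, and Peg3, at 1430.2 CPM in the adult and 1025 CPM at P5, was higher by CPM but not with TMM factors. Nrk, a kinase gene, and the proteoglycan gene Gpc3 also had 0 UMIs in the adult, at least 7.20- and 6.95-fold lower. Of 24 matrix genes 12 were lower and 1 higher (median -1.17), and 7 of 16 were lower without the other-type nuclei. The matrix list summed to 8982 CPM in the adult and 16361 CPM at P5. In other nuclei with Ttn under 1%, Dlk1, Plagl1, Nrk and Gpc3 were at 0.00828, 0.0523, 0.0194 and 0.206 of their P5 levels. Of 13 mitosis genes measured, Diaph3 alone (534 CPM at P5, 0 UMIs in the adult) was counted as lower, at least 3.11-fold.

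**Figure D4:**
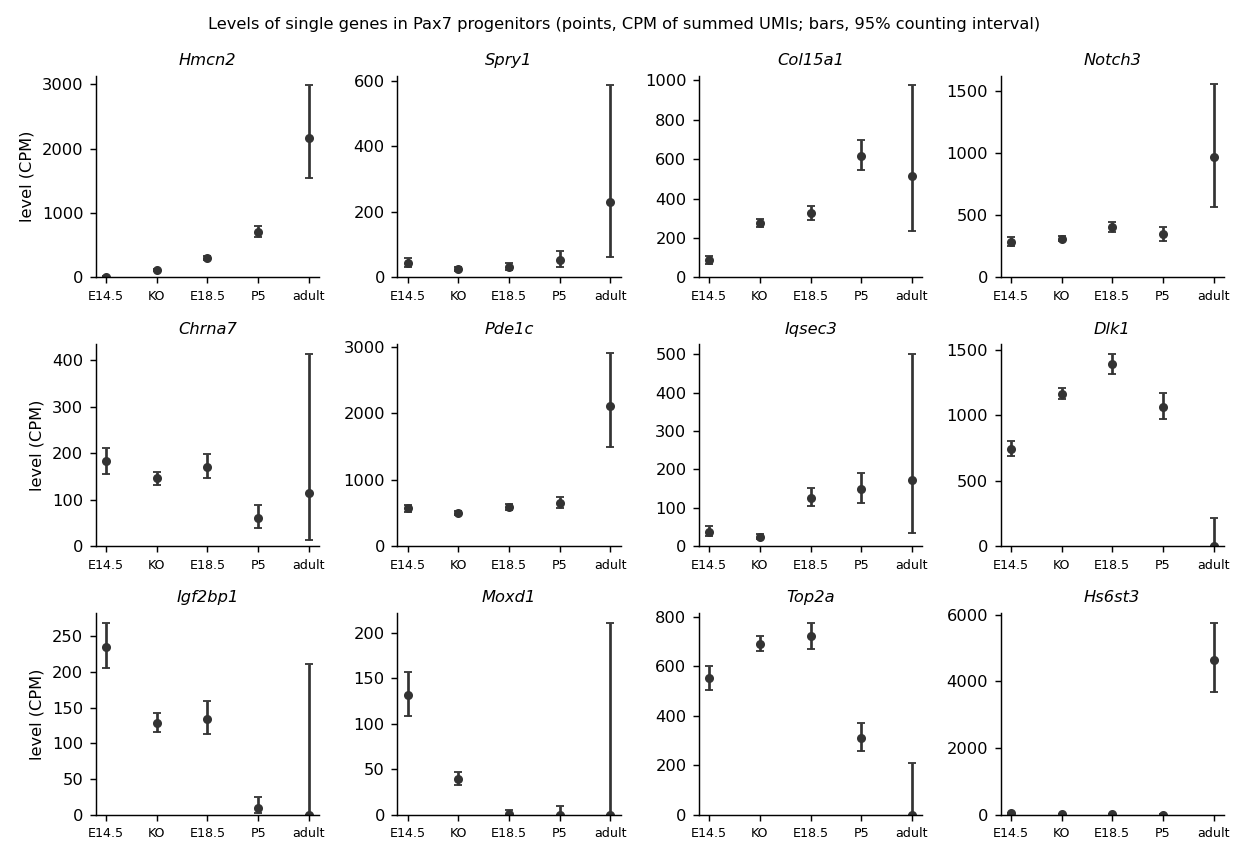
CPM of 12 genes in Pax7 progenitors (y axis, each panel from 0), by library, with exact Poisson 95% intervals. Hmcn2 is lowest at E14.5 (8.67 CPM) and highest in the adult (2174 CPM), Hs6st3 stands out only in the adult (4634 CPM), Igf2bp1 is at 9.93 CPM at P5 (0 UMIs in the adult, where the interval reaches 211 CPM), and Iqsec3 is lower in the KO (24.7 CPM) than in WT at E18.5 (126 CPM).

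KO progenitors at E18.5 differed from WT progenitors of the same age in few genes of the mitosis, DNA replication, Notch, matrix and quiescence lists. Marker lists of other cell types differed more, with 7 of 7 measured endothelial and 6 of 7 macrophage markers higher and 4 of 10 mesenchymal markers lower. The 8 endothelial markers had 12 UMIs in all in WT, so each was measured only through the KO and could not be counted as lower. Of 8 macrophage markers, 4 were detected in WT. Without nuclei holding other-type markers, 0, 1 and 3 of the endothelial, macrophage and mesenchymal markers were measured, and 0 differed 2-fold. Those nuclei were left out for holding these same markers, so this loss followed from the choice. It does not show where the differences came from. Of 6 immediate early and stress genes 1 was higher and 3 lower, and 2 of 4 were higher without those nuclei. Of 10575 genes, 840 were higher in the KO (7.94%) and 339 lower (3.21%), with a median log2 ratio of -0.02, and the interval excluded equality in 629 and 335. Without nuclei holding other-type markers 546 were higher and 243 lower of 8194. The KO sum of UMIs was the largest of the 5, and the minimum of 20 UMIs was 6.86 CPM there and 20.4 CPM in WT. Genes rare in both libraries were thus measured mainly through the KO and could hardly be counted as lower. With at least 1 UMI, 1488 were higher and 1698 lower. The mitosis list had 0 of 20 genes higher and 0 lower (median 0.26, and 0.06 without the other-type nuclei), although more KO nuclei had 2 or more of its genes. Its sum was 4860.0 CPM in the KO and 4049 CPM in WT, and Mki67 was at 397 CPM in the KO and 265 CPM in WT. DNA replication genes had 0 of 18 higher and 0 lower (median -0.29).

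Few genes of the Notch and matrix lists differed 2-fold in KO progenitors. Heyl was at 21.6 CPM in 47 of 331 KO progenitors and 48.9 CPM in 36 of 148 WT progenitors (2.26-fold lower, 1.52–3.35), and it was 0.45 of the WT level without the other-type nuclei. With Hes6 it made 2 of 15 Notch genes lower, against 0 higher (median -0.16), and 1 of 14 was lower without the other-type nuclei. Rbpj, the DNA-binding partner of Notch, was at 548 CPM in the KO and 355 CPM in WT. Tnc, Fn1 and Col1a1 made 3 of 24 matrix genes lower, against 0 higher (median -0.54), and without the other-type nuclei 2 were lower and 1 higher. Tnc (tenascin C) was at 244 CPM in the KO and 606 CPM in WT (2.49-fold lower, 2.23–2.78), and at 322 and 748 CPM without the other-type nuclei. The quiescence list had 1 of 15 higher (Sdc4) and 0 lower (median -0.06). Hmcn2 was at 112 CPM in the KO and 303 CPM in WT.

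A few commitment genes were counted as higher in KO progenitors, though rare genes were measured mainly through the KO. Myog, the factor that starts terminal differentiation, had 43 UMIs (14.8 CPM) in 29 KO progenitors and 4 UMIs (4.08 CPM) in 4 WT progenitors (3.62-fold, 1.31–13.9). Mef2c was at 326 CPM in the KO and 154 CPM in WT (2.12-fold, 1.78–2.53), and with Mymk, whose interval included equality, 3 of 13 commitment genes were higher and 0 lower. Without the other-type nuclei 2 of 12 were higher and 0 lower (median -0.03), and the interval of Myog then included equality (3.42-fold, 0.835–30.1). Myonuclear markers summed to 894 CPM in KO progenitors and 718 CPM in WT progenitors, and those of committed myoblasts to 145 and 90.7 CPM, and their part in these ratios was not tested. Myod1 was close, at 22.3 CPM in the KO and 23.4 CPM in WT. The growth factor gene Igf2 was at 340.3 CPM in KO progenitors and 148 CPM in WT progenitors (2.30-fold, 1.93–2.76; 404 and 120 CPM without the other-type nuclei). After thinning to 1000 UMIs it was detected in 29.3% of KO progenitors and 16.9% of WT progenitors, where endothelial nuclei of the same libraries gave 16.3% and 18.9%. Erbb3 was at 14.4 CPM in the KO and 3.06 CPM in WT (4.71-fold, 1.51–23.8), and it too passed the minimum only through the KO.

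Of the 10 genes that led the lower side in the KO, 5 were spread over many progenitors. Iqsec3 was at 24.7 CPM in 56 KO progenitors and 126 CPM in 55 WT progenitors (5.12-fold lower, 3.8–6.94). Creb5, a transcription factor gene, was at 125 and 527 CPM (4.23-fold lower, 3.69–4.85), and at 37.1 and 314 CPM without the other-type nuclei. Rcan2 was at 19.6 and 119 CPM (6.10-fold lower, 4.41–8.52) and Msmo1, an enzyme of cholesterol synthesis, at 11.3 and 77.5 CPM (6.84-fold lower, 4.49–10.6). AC149090.1, a gene model, was at 151 CPM in 190 KO progenitors and 695 CPM in 128 WT progenitors. Other nuclei with Ttn under 1% were lower in the KO as well for Creb5 (0.274 of the WT level), AC149090.1 (0.263) and Msmo1 (0.347), with ratios of 0.720 for Iqsec3 and 1.26 for Rcan2. Tnmd, Scube2, Thbs3, Col22a1 and Car10, which are of tendon and matrix cells or sparse, had few UMIs outside the other-type nuclei. On the higher side, F13a1, Mrc1, Ptprc, Stab1, Dock2 and Arhgap15 led, F13a1 at 148 CPM in the KO and 3.06 CPM in WT. These are genes of macrophages and other leukocytes, and the macrophage markers summed to 467 CPM in KO progenitors and 156 CPM in WT progenitors (173 and 159.9 CPM without the other-type nuclei). Endothelial markers summed to 106 and 12.2 CPM (16.9 and 7.99 CPM without the other-type nuclei). The nuclei left out were chosen by these same markers.

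Open chromatin, which the rule did not use, was read at the same genes. Whether the peak tables count cut ends or fragments is not given in the sources used here. Their entries were even in 82.9% to 85.0% of cases, so each pair of counts, and each odd count left over, was taken as 1 fragment, and the ratios and intervals below are over these fragments unless counts are named. At the peak within 1000 bp of the Pax7 start, progenitors had 44.8, 42.5 and 53.2 counts per 1000000 at E14.5, E18.5 and P5, against 13.8, 11.8 and 12.7 in other nuclei (ratios by counts 3.25, 3.61 and 4.18). By fragments the ratios were 3.01 (1.94–4.51), 3.36 (2.23–4.89) and 3.85 (2.23–6.28). In the KO they had 54.5, against 18.6 in other nuclei (2.86-fold by fragments, 2.03–3.98). The peak at Fgfr4 was 2.46-fold more open in progenitors in the KO, and 2.21-, 2.62- and 3.21-fold at E14.5, E18.5 and P5, with 18.6-fold (5.02–48.7) in the adult on 7 counts. At Chodl the ratio was 5.29 (3.67–7.59) in the KO, 2.82 at E14.5 and 3.84 at E18.5, while at P5 only 4 counts fell in progenitors (0.679, 0.0812–2.52). At Calcr the ratios were 2.28 (0.797–5.36), 2.79 (0.984–6.46) and 3.72 (0.964–10.3) at E14.5, E18.5 and P5, and each interval included equality. Those of Megf10 were 1.15 (0.720–1.75), 1.91 and 2.65, and those of Msc 2.50, 2.04 (0.996–3.76) and 2.72, in the same order. Myf5 was at 2.89 (1.68–4.73) at E14.5 and had no peak within 1000 bp at E18.5 or P5. In the KO, Megf10, Msc and Myf5 were at 2.44, 5.43 and 3.26 by counts. The Ttn start was less open in progenitors in the 4 younger libraries, with ratios of 0.191 to 0.353. In the adult the ratio was 0.288 on 3 counts, and its interval (0.0349–1.04) included equality. Of the peaks measured, those at least 2-fold more open in progenitors made up 8.66% in the KO and 6.84%, 6.9%, 6.33% and 8.16% by WT stage.

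Among genes outside the rule, the starts of Frem1, Notch3 and Tshz3 were more open in progenitors, with ratios of 2.26 to 4.08 for Frem1, 1.64 to 2.47 for Notch3 and 1.92 to 2.43 for Tshz3 in the 4 younger libraries. Iqsec3, though its RNA was many times higher, had ratios of 0.628 to 0.922 there, with intervals that included equality. Heyl varied between libraries, with a ratio of 2.52 (1.61–3.84) in the KO, where its RNA was lower than in WT, and of 3.64 (2.39–5.39) at E14.5, 0.836 (0.357–1.67) at E18.5 and 1.37 (0.541–2.87) at P5. The start of Mki67 had a ratio of 1.82 (1.41–2.33) in the KO, 1.38 (1.00–1.87) at E14.5, 1.08 (0.770–1.49) at E18.5 and 1.58 (0.971–2.45) at P5. That of Top2a had 1.32 (1.02–1.69) in the KO, and 1.18, 1.09 and 0.976 at E14.5, E18.5 and P5 with intervals that included equality. The peaks with the highest lower limits lay mostly far from starts. At chr13:69230208-69231102, 88.978 kb from the start of Gm26844, progenitors at E14.5 had 85 counts and other nuclei 64 counts (23.3-fold by counts), and at chr7:49678628-49679531, 41.778 kb from Dbx1, progenitors at E18.5 had 63 counts and other nuclei 80 counts (20.9-fold).

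**Figure D5:**
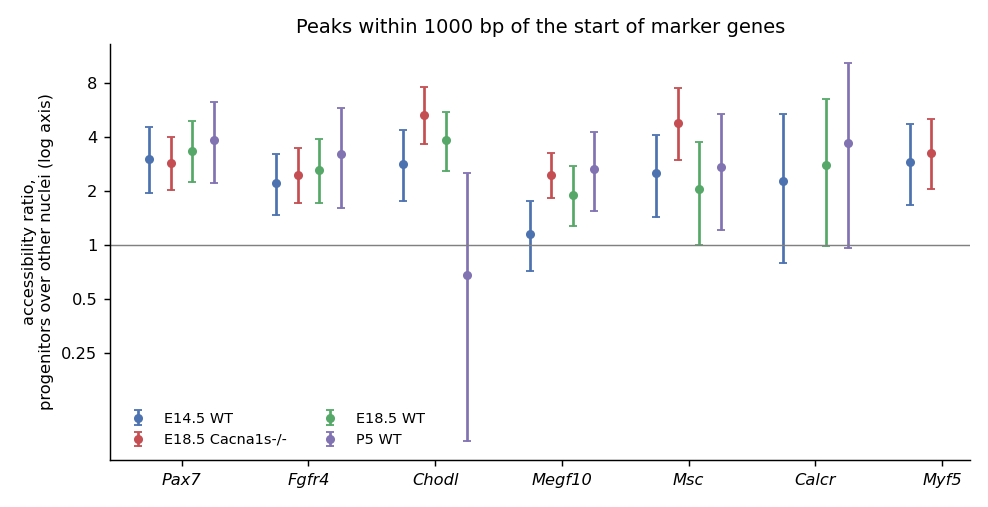
Ratio of open chromatin in Pax7 progenitors over other nuclei of the same library (y axis, log scale) for peaks within 1000 bp of the starts of the 7 marker genes, with pairs of counts taken as 1 fragment and exact 95% intervals, for the 4 younger libraries. Pax7 lies above 1 in each, at 2.86 to 3.85, and Chodl ranges from 0.679 at P5 to 5.29 in the KO.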

How the data were processed

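Nuclei were sorted, pooled per group and sequenced as 1 multiome library per group. Per the labels and the study's methods, the authors made the deposited UMI counts per gene and counts per peak with Cell Ranger ARC 2.0.0 on mm10, with intronic reads. Strand use in counting and the unit of the peak counts (cut ends or fragments) are not given in the sources used here, and doublets were not removed. These raw counts were read as deposited, with 0 columns left unmapped. Counts of progenitors were summed per library and scaled to CPM, with exact Poisson, conditional (Clopper-Pearson) or binomial 95% intervals computed in scipy 1.17.1 under Python 3.11.15 (with pandas 2.3.3, numpy 2.4.6 and, for plots, matplotlib 3.10.9). The script was tested on simulated data. Thinning drew 1000 UMIs per nucleus with seed 1. Genes named are those of the fixed lists, the 10 on each side of a comparison ranked by the interval limit nearest to equality, the 20 shared genes with the highest lowest limit, the 10 leading peaks per library, and Cacna1s. Among the genes that this rule picks, 1 is not reported here. The members and lists were chosen with earlier results of these data known. Alternatives were other rules, UMI minimums, thinning, per-nucleus means, TMM (edgeR 4.0.16) and size factors (DESeq2 1.42.0, R 4.3.3), used for scaling only.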

Additional observations from a re-analysis of the deposited data

How the results depend on the processing

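No paired analysis was possible because each group was 1 library. For the share of progenitors, at least 2 markers gave 4.29% at E14.5. At least 4 markers gave 8.05% in the KO and 1.82%, 2.59% and 1.25% at E14.5, E18.5 and P5, leaving out nuclei with other-type markers 7.15%, 2.94%, 2.31% and 1.09%, and thinning to 1000 UMIs 1.59%, 0.575%, 0.566% and 0.475%, in the same order. Without the Ttn limit the KO share was 11.8%. Of nuclei with Ttn under 1%, an alternative chosen after seeing the data, the shares were 14.8% in the KO and 6.05%, 5.49%, 3.62% and 1.91% by WT stage. Counts of genes (higher, then lower) moved with the UMI minimum, with thinning and, in the adult, with the scaling. With at least 50 UMIs they were 312 and 219 at E18.5 over E14.5, 124 and 312 at P5 over E18.5, 170 (higher) in adult over P5, and 365 and 142 in KO over WT. With at least 1 UMI they were 1716 and 1822, 2121 and 1497, 1794 (higher), and 1488 and 1698. Thinning gave 180 and 195, 72 and 252, 61 and 208, and 260 and 84. Without nuclei with other-type markers, 385, 203, 147 and 546 genes were higher. Without nuclei with 2 or more mitosis genes, 173 were lower at E18.5, 212 higher and 323 lower at P5, 222 higher in the adult, and 466 higher and 218 lower in the KO. For adult over P5, TMM gave 192 and 1062, size factors 208 and 1013, at least 4 markers 276 lower, and the interval criterion, added after seeing the data, 175 and 119. The mitosis share without thinning was 71.6% in the KO and 77.7%, 62.2% and 42.5% at E14.5, E18.5 and P5, with 1 gene enough 68.3%, 74.9%, 52.0% and 42.5%, and with 3 genes needed 46.5% in the KO, 50.3% at E14.5 and 32.4% at E18.5. Shared genes without the adult, also added later, numbered 148. Ratios that turned round without nuclei with other-type markers were Acsl1 (0.181) and Col3a1 (0.970) at E18.5 over E14.5, Mef2c (0.475) and Myh8 (0.325) at P5 over E18.5, and Col3a1 (2.33) and the quiescence median (-0.028) in adult over P5. Without nuclei with 2 or more mitosis genes they were Mef2c (2.78) and Myl1 (1.75) at E18.5 over E14.5 and Mef2c (0.489) and Myl1 (0.952) at P5 over E18.5. In adult over P5, Adgra3 turned with at least 4 markers (0.833) and Mef2c with per-nucleus means (1.40). The cause of these moves was not tested. Of the remaining alternatives for main results, 135 stayed within counting error or 1.5 times the count. Depth limits the adult most, where the floor was 172 CPM.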
